A study of Mus musculus with 24 samples.

Results

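The comparison described here asked what the loss of TFE3 changed in mouse melanoma cells that already lacked MITF. RNA from the MITF/TFE3 DKO line was set against RNA from the MITF KO line it was derived from, with 3 libraries for each line, which are 6 of the 24 libraries and 2 of the 8 lines of the series, and all 12010 measured genes were examined. B16F10-luc2 is a luciferase-marked derivative of the pigmented B16-F10 melanoma line of C57BL/6 mice. The MITF KO line carries the Mitf knockout alone (Tfeb and Tfe3 intact), and the MITF/TFE3 DKO line carries the knockouts of Mitf and Tfe3 (Tfeb intact), so both lines lack MITF and both keep TFEB. The Tfe3 knockout was made with CRISPR-Cas9 ribonucleoprotein and a clone was isolated, so a difference between the lines can belong to the loss of TFE3 or to the clone, and these cannot be told apart. The Mitf knockout line may also keep a low level of a shortened MITF protein, according to the methods and text of the study. All cells were grown in DMEM with fetal bovine serum and without further treatment, and the other 6 lines (parental, TFE3 KO, TFEB KO, TFEB/TFE3 DKO, MITF/TFEB DKO and the triple knockout, TKO) are used below only where they place a result.

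MITF, TFEB and TFE3 belong to the MiT/TFE family of basic helix-loop-helix leucine zipper factors, which bind E-box sequences as dimers. MITF is the master regulator of the melanocyte lineage, and TFEB and TFE3 are best known for driving lysosomal, autophagy and nutrient stress genes when mTORC1 is inactive. Type I interferons act through the receptor chains IFNAR1 and IFNAR2 and the kinases JAK1 and TYK2 on the ISGF3 complex, which binds the interferon-stimulated response element (ISRE) in the promoters of the interferon-stimulated genes (ISGs).

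Levels are given as CPM, counts per unit of library depth after normalisation, taken at the 3′ ends of transcripts, and the 6 libraries had from 18300902 to 25067748 reads assigned to genes. A gene was called upregulated or downregulated when the log2 fold change of CPM + 1 was at least 1 (fold change of 2) with an unadjusted limma p under 0.05, and Benjamini-Hochberg adjusted p-values over all 12010 genes are given beside the calls. Because 1 CPM was added before taking logs, the log2 fold changes understate the change of genes at low levels. The labels do not say whether replicates were separate cultures, so the p-values measure the spread between libraries, which may be technical. In bulk RNA a lower level in every cell and fewer cells at a high level cannot be told apart. Melanoma cell markers were high in both lines, with Pmel, Tyr, Tyrp1, Dct, Mlana, Sox10, Pax3 and Mitf summing to between 38655 and 40592 CPM in the MITF KO libraries and between 30257 and 33006 CPM in the MITF/TFE3 DKO libraries. The macrophage markers Cd68 and Lyz2 together reached 2.62 CPM at most, Col1a1 of fibroblasts 2.45 CPM and Krt14 of keratinocytes 0.161 CPM. T cell, NK cell and leukocyte markers were not among the measured genes, and Pecam1 of endothelial cells rose from between 0.0545 and 0.482 CPM to between 1.1 and 2.03 CPM, whose part in the results was not tested.

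The Tfe3 guide given in the design of the series matched the mouse genome at 1 place, in coding exon 2 of 10 of Tfe3 (GRCm39 chrX:7631806-7631825, minus strand). The methods of the study list a different mouse Tfe3 guide, and which of them made the MITF/TFE3 DKO line is not given in the sources used here. The site of the guide in the design is shown 5′ to 3′ because Tfe3 is the gene edited between the lines, with the protospacer-adjacent motif in capitals.
Tfe3 guide site: cgtagaagctgtcaggatcgAGG
Tfe3 RNA stood at 51.3, 54.2 and 49.5 CPM in the MITF KO libraries and at 8.01, 9.75 and 8.14 CPM in the MITF/TFE3 DKO libraries. The groups did not overlap, and the log2 fold change was -2.45 ± 0.16 (SE; adjusted p = 2e-11). RNA of a gene with a frameshift can remain, so the remaining reads do not measure the protein. Tfeb had 15.5, 22.7 and 16.8 CPM against 10.7, 13.6 and 9.55 CPM, a log2 fold change of -0.65 that stayed under the size limit. Mitf, whose RNA persisted in both lines, had 1364, 1470.5 and 1358 CPM against 1101, 1208 and 1268 CPM (log2 -0.23, adjusted p = 0.0583).

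In all, 407 genes were upregulated (3.39% of those tested) and 201 were downregulated (1.67%). Of these, 390 and 201 also had an adjusted p under 0.05. At any size, 2170 genes were higher (18.1%) and 2363 lower (19.7%) at an adjusted p under 0.05, while 399 of the upregulated genes (3.32% of all genes) and 200 of the downregulated genes (1.67%) had 3 libraries of each line that did not overlap. The large changes lay on the side of the rises. A log2 fold change of at least 3 was reached by 67 rising genes, 42 of them on a list of ISGs, and a fall of that size by 3 genes. The plot of all genes shows the ISGs as a separate cloud above the rest.

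**Figure D1:**
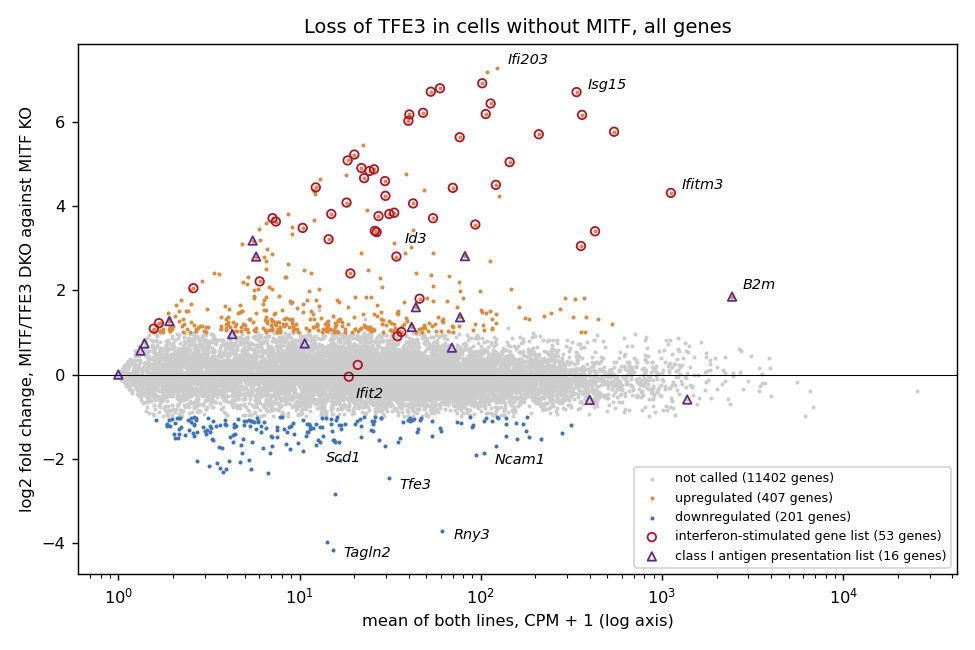
Each point is one of 12010 genes, with the mean of both lines (CPM + 1, log axis) on the x axis and the log2 fold change of MITF/TFE3 DKO against MITF KO on the y axis. Orange points are the 407 upregulated and blue points the 201 downregulated genes, red circles mark the 53 measured genes of the ISG list and purple triangles the 16 of the class I antigen presentation list. The circles reach 6.91 at Usp18, and only Ifi203 at 7.27 and Mndal at 7.17 lie higher.

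Nearly the whole ISG list was higher after loss of TFE3 in cells without MITF. Of 53 measured members, 50 were upregulated (94.3%, against 3.39% of all genes), none was downregulated, and the median log2 fold change was 4.08 against -0.01 over all genes. With the 5 members that had no read in any MITF KO library set at their lower bounds, the median was 4.44. The members not called were Uba7, the E1 enzyme for ISG15 (log2 0.91), Trafd1 (0.23) and Ifit2 (-0.05, adjusted p = 0.836). Without MITF KO replicate 2 or MITF/TFE3 DKO replicate 2 the count was 49, and without any other single library of the lines it was 50. The list is spread over 18 chromosomes.

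The values of Isg15 and Usp18 were far apart between the lines, and they also varied within each line. Isg15, the ubiquitin-like modifier that is attached to many proteins during an interferon response, stood at 6.07, 5.1 and 4.74 CPM in the MITF KO libraries and at 849.8, 504 and 649.7 CPM in the MITF/TFE3 DKO libraries (log2 6.70 ± 0.26, adjusted p = 9.3e-16). Usp18, the protease that removes ISG15 and dampens receptor signalling, had 0.471, 0.602 and 0.981 CPM against 193, 230.3 and 179 CPM (log2 6.91 ± 0.12, adjusted p = 1.3e-22). In both genes every MITF/TFE3 DKO library lay far above every MITF KO library.

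The 150 bases before the annotated start of 6 list members are printed 5′ to 3′ on the strand of the gene, because they hold the element through which ISGF3 is known to act. They were read from the GRCm39 genome with GENCODE starts, and capitals mark every match to the ISRE core, which is GAAA followed after any 2 bases by another GAAA, on either strand (TTTC in place of GAAA on the other), with overlapping matches run together. The genes were chosen among those whose window overlaps no other annotated gene. All 6 hold a match, unlike the list as a whole, whose share is given below.
Isg15, chr4:156285304-156285453, minus strand: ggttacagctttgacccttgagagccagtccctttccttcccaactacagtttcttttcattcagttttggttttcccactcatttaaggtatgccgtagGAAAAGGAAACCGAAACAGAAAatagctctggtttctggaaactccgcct
Ifit3, chr19:34560749-34560898, plus strand: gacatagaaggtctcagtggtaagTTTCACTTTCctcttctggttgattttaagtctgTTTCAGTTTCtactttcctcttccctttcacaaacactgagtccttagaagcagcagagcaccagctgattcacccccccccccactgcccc
Rsad2, chr12:26506452-26506601, minus strand: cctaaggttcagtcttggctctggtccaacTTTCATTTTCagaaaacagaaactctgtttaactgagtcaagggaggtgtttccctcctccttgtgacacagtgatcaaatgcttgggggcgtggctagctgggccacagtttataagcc
Bst2, chr8:71990115-71990264, minus strand: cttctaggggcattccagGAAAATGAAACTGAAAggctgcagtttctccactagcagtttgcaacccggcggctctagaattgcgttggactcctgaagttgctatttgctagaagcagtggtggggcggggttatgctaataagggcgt
Oas2, chr5:120887934-120888083, minus strand: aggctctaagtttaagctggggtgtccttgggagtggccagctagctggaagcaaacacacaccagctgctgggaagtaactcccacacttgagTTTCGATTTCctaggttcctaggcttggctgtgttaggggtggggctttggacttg
Zbp1, chr2:173060725-173060874, minus strand: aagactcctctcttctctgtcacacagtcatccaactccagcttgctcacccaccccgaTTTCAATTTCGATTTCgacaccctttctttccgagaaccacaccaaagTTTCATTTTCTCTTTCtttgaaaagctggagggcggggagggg
In Isg15, 3 overlapping matches end just upstream of the start, with the nearest beginning 38 bases before it. Zbp1 holds 4 matches, the nearest beginning 37 bases before the start, Ifit3 and Bst2 hold 2 each, and Rsad2 and Oas2 hold 1 each. Over windows from 250 bases before to 50 bases after the start, read on both strands, the ISRE core was found in 27 of 52 list members with a position (51.9%), in 66 of 395 upregulated genes (16.7%), in 2 of 198 downregulated genes (1.01%) and in 402 of all 11742 genes (3.42%). Among the upregulated genes outside the list it was found in 39 of 346 (11.3%). The E-box CACGTG, which the MiT/TFE factors bind and which lies inside the longer lysosomal element TCACGTGA, was found in 1.92% of the list, 8.35% of the upregulated, 9.09% of the downregulated and 10.2% of all genes. TCACGTGA was found in 0.506% of the upregulated, 1.01% of the downregulated and 1.74% of all genes, and the melanocyte element TCATGTG in 3.54%, 3.54% and 2.42%. These matches describe letters in the genome, and no binding was measured in these libraries. From binding data in human melanoma cells, the study reports MITF family binding at many interferon alpha response genes and proposes that direct regulation is possible.

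The signalling components of the pathway divided into a group that rose and a group that did not pass. Irf9, the DNA-binding subunit of ISGF3, had 5.6, 5.54 and 4.47 CPM in the MITF KO libraries against 128, 146 and 124 CPM in the MITF/TFE3 DKO libraries (log2 4.43), and Stat2, which partners it in the complex, rose by 2.40. The lines did not overlap in either gene.

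Upstream of ISGF3, 17 measured receptors, kinases and sensing adaptors, a group put together after the values were seen, had a median log2 fold change of 0.27. Of these, 2 were upregulated (11.8%, against 3.39% of all genes) and 8 were higher at any size (47.1%, against 18.1%). The upregulated genes were Tlr3, the endosomal sensor of double-stranded RNA, with 12.3, 11.4 and 15.1 CPM against 33, 39.6 and 37.1 CPM (log2 1.44), and Myd88, the adaptor of most Toll-like receptors (log2 1.25). Ifnar1 had 18.6, 17.6 and 19.7 CPM against 19.6, 21 and 26.1 CPM and overlapped between the lines (log2 0.24, adjusted p = 0.149). Jak1 differed by -0.37, Tyk2 by 0.16, Mavs by 0.58, Sting1 by 0.46, Cgas by 0.27 and Irf3 by -0.33, and none of these was called. Of the interferon regulatory factors, Irf1 rose by 1.01 from between 21.8 and 24.3 CPM to between 44.8 and 53.4 CPM. Irf7 had no read in the MITF KO libraries and 1.12, 1.27 and 1.65 CPM in the libraries of MITF/TFE3 DKO, which is at least 28.8-fold higher (against a floor of 3 reads over the 3 libraries, here and below).

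The ISG list holds several sensors of foreign nucleic acid that rose, while Cgas, the DNA sensor given above, was not called. Ddx58, which encodes RIG-I, had 9.74, 7.59 and 10.5 CPM against 210.2, 247 and 236 CPM (log2 4.50 ± 0.09), and Ifih1, which encodes MDA5, had 3.11, 1.2 and 1.91 CPM against 49.4, 54.2 and 62.9 CPM (log2 4.24 ± 0.16). Eif2ak2, which encodes the kinase PKR, rose by 1.80. Adar, which edits double-stranded RNA and limits its sensing, was singled out after its values were seen and rose by 2.20, from between 23.2 and 29.7 CPM to between 112 and 134 CPM. Zbp1, a sensor of Z-form nucleic acid, had no read in the MITF KO libraries and 3.61, 3.63 and 2.33 CPM in the libraries of MITF/TFE3 DKO, which is at least 68.8-fold higher.

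All 7 measured members of the 2′-5′ oligoadenylate synthetase family, whose products activate RNase L, were upregulated (against 3.39% of all genes). The family was counted after the values were seen, and its log2 fold changes ran from 2.19 for Oas1c to 5.22 for Oas2. Oas2 had 0, 0 and 0.109 CPM against 28.9, 45 and 40.3 CPM. The ratio of the read sums, scaled to depth, was 1216, with a 95% counting interval from 336 to 10048. Oas1a and Oas1g are near-identical copies, so their separate counts are uncertain.

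The IFIT genes, which bind foreign RNA ends, held both large rises and the lowest value of the list. Ifit3 had 8.85, 8.84 and 9.21 CPM against 746, 744 and 649 CPM (log2 6.16 ± 0.08, adjusted p = 1.6e-24). Ifit1 rose by 5.70 to between 393 and 432 CPM. Ifit2 had 18.3, 20.2 and 15.4 CPM against 16.5, 16 and 19.6 CPM, and its libraries overlapped. Ifit3b is a near-identical copy of Ifit3, so its rise of 6.18 is uncertain.

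Other antiviral effectors followed the same direction. Rsad2, which encodes viperin, had 16.1, 16.7 and 24 CPM against 965, 1163 and 1074 CPM (log2 5.76). Ifitm3, a membrane protein that blocks virus entry, was the most abundant member in the MITF/TFE3 DKO line, with 95, 118 and 106 CPM against 2082, 2369 and 1941 CPM (log2 4.31). Bst2, which tethers budding virus, rose by 5.04 from between 7.01 and 8.01 CPM to between 266 and 299.7 CPM. The groups were apart in each of these genes.

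Several gene families with interferon-inducible members were counted after the values were seen. Of 14 measured interferon-inducible GTPases, which attack vacuoles of intracellular pathogens, 12 were upregulated (85.7%, against 3.39% of all genes). Gbp4 and Gbp6 had log2 fold changes of 0.68 and 0.95 at low levels. Igtp had 0.235, 0.241 and 0.327 CPM against 80.6, 111 and 89.8 CPM (log2 6.21), and Iigp1 had 0.188, 0 and 0 CPM against 110.1, 120.1 and 119.8 CPM (log2 6.79). Within the IFI200 family of DNA sensors 5 of 7 rose (71.4%). Ifi203 had 0.471, 0.843 and 0.436 CPM against 229, 253 and 244 CPM (log2 7.27, the largest rise of all named genes), and Mndal rose by 7.17. Members of this family share sequence, so the split of reads between Ifi203 and Mndal is uncertain.

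All 6 measured genes of the TRIM5, TRIM12, TRIM30 and TRIM34 group rose, with Trim30a at 13.1, 10.3 and 11.7 CPM against 235, 231 and 245 CPM (log2 4.24). All 3 PHF11 genes, 3 of 5 Schlafen genes (60%) and 5 of 12 PARP genes (41.7%) rose, against 3.39% of all genes. In the PARP family the rises were in Parp9, Parp10, Parp11, Parp12 and Parp14, with log2 fold changes from 2.33 to 3.84, whereas Parp1, the main DNA damage polymerase, differed by -0.28 and Parp2 by 0.10. Slfn3 differed by -0.45 within its family, while Slfn2 rose by 4.74 and Slfn8 by 4.39. Altogether 83 of the 407 upregulated genes lay on the ISG or class I lists or in these families. The families were chosen after the values were seen, so this total gives no share to set against all genes.

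Genes for class I antigen presentation also rose, with a lower median than the ISGs. Of 16 measured members 8 were upregulated (50%, against 3.39%), none was downregulated, and the median log2 fold change was 1.05. Leaving out a single library kept 8 or 9 members called. B2m, the invariant light chain, had 1075, 1072 and 1019.6 CPM in the MITF KO libraries and 3586, 4287 and 3576 CPM in the libraries of MITF/TFE3 DKO (log2 1.85 ± 0.13, adjusted p = 6.8e-11). H2-D1, a heavy chain, had 17.3, 17 and 24.5 CPM against 162, 120.4 and 145 CPM (log2 2.81). The lines were apart in both genes. H2-K1 had no read in any of the 6 libraries, and class I heavy chain genes are so alike that counting could drop or shift their reads.

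Peptide supply genes moved unevenly. Tap1, a subunit of the peptide transporter, had 0.0471, 0.161 and 0.0545 CPM against 7.97, 10.8 and 8.04 CPM (log2 3.18), and Nlrc5, the transactivator of class I genes, rose by 2.80. Psme2 of the immunoproteasome cap rose by 1.60, Tapbp by 1.36, and the immunoproteasome subunits Psmb9 and Psmb10 by 1.27 and 1.13. Of 14 constitutive proteasome core genes, counted after the values were seen, 1 was called upward (7.14%, against 3.39% of all genes). It was Psma5, with 23.9, 15.5 and 24.8 CPM against 69.1, 32.5 and 48.8 CPM. The endoplasmic reticulum chaperones of the loading complex were lower, Calr by 0.59 and Pdia3 by 0.60 on the log2 scale, without passing the size limit.

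The list of NK and T cell ligands and chemokines also holds other secreted factors, such as Csf1, Il34 and Vegfa. Of its 22 measured members, 6 were upregulated (27.3%, against 3.39% of all genes) and 1 was downregulated (4.55%, against 1.67%). Pvr, Nectin2, Nectin3, Cd274, Cd47, Cd276, Fas and Tnfrsf10b were not called, with log2 fold changes between -0.20 and 0.66. Cxcl10, given below, is also a member of the ISG list. Ccl5, which attracts T cells, had 13.3, 11.8 and 11.3 CPM against 95.1, 100.4 and 90.5 CPM (log2 2.88 ± 0.09). Cxcl10 had 1.37, 0.402 and 1.36 CPM against 27, 27 and 26.6 CPM (log2 3.81), and Cxcl9 had no read in the MITF KO libraries against 2.08, 2.69 and 2.56 CPM, at least 52.2-fold higher. Lgals9, a galectin that binds TIM-3, had 3.44, 3.69 and 3.16 CPM against 89.2, 105 and 81.6 CPM (log2 4.39). Lgals3, another galectin, fell by 1.33, from between 242 and 276 CPM to between 92.4 and 109 CPM. Csf1 and Tgfb3 rose by 1.21 and 1.10.

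Set beside the other lines, the MITF KO line held the lowest ISG level of the series. The 53 members summed to 479, 498 and 496 CPM in its libraries and to 9684, 10203 and 9306 CPM in the MITF/TFE3 DKO libraries. The parental libraries, which have all 3 factors, reached 10695, 11044 and 11035 CPM, and the MITF/TFE3 DKO libraries lay below them without overlap. The MITF/TFEB DKO line held between 12359 and 12716 CPM, the TKO line between 1271 and 1358 CPM, and the TFE3 KO, TFEB KO and TFEB/TFE3 DKO lines between 6136 and 7887 CPM. Usp18 had a mean of 0.685 CPM in MITF KO, 2.2 CPM in TKO, 201 CPM in MITF/TFE3 DKO and 185 CPM in parental cells. The 16 class I genes summed to between 3270.3 and 3472 CPM in MITF KO and to between 5427 and 6322 CPM in MITF/TFE3 DKO, with the TKO line between 3113 and 3279.7 CPM.

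**Figure D2:**
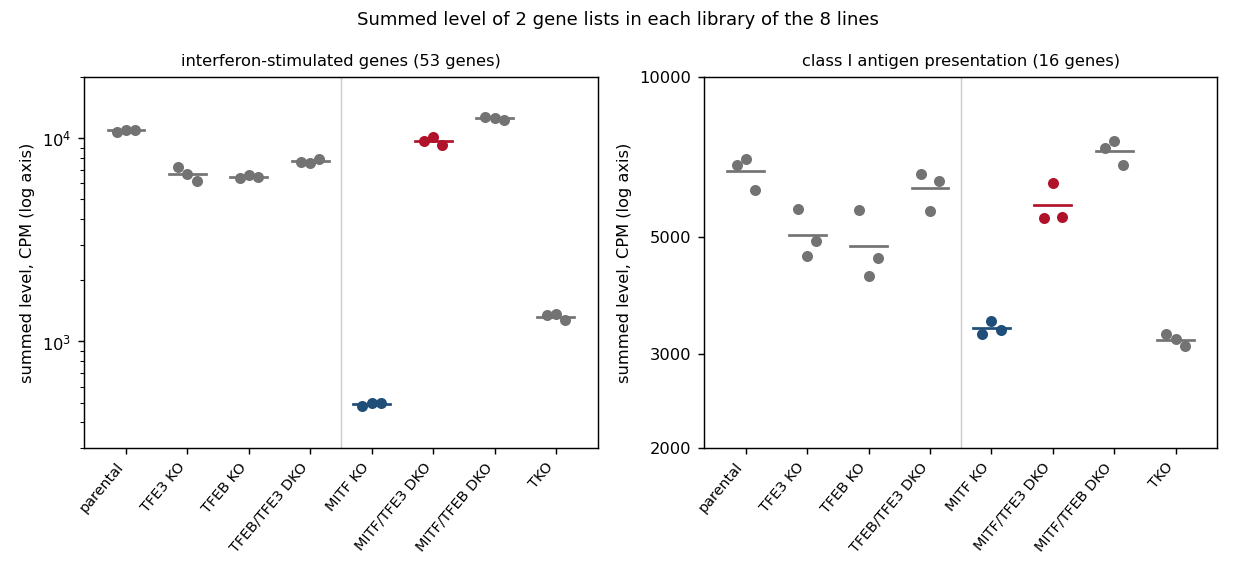
Summed level of the 53 ISGs (left) and the 16 class I antigen presentation genes (right) in each library of the 8 lines, in CPM on log axes, with a bar at the mean of each line. The 3 MITF KO libraries (blue) lie between 479 and 498 CPM on the left and the 3 MITF/TFE3 DKO libraries (red) between 9306 and 10203 CPM, with only the TKO line also near the low end.

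The effect of losing TFE3 on these genes differed between backgrounds, and the difference itself was tested with lines that are shared by no pair of effects. Where MITF was present (TFE3 KO against parental), 44 genes were upregulated (0.366%) and 161 downregulated (1.34%), and on the ISG list none rose and 29 fell, with a median of -1.02. Where MITF and TFEB were both absent (TKO against MITF/TFEB DKO), the calls were 38 upward (0.316%) and 238 downward (1.98%), and on the ISG list none rose and 47 fell, with a median of -3.53. In cells lacking MITF but not TFEB, 50 rose.

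The effect without MITF minus the effect with MITF was higher by at least 1 on the log2 scale for 492 genes (4.1%) and lower for 252 (2.1%), of which 482 and 249 had an adjusted p under 0.05. On the ISG list 51 of 53 members were higher. The effect in MITF KO minus the effect in MITF/TFEB DKO was higher for 586 genes (4.88%) and lower for 405 (3.37%), with 556 and 404 at an adjusted p under 0.05, and again 51 ISGs were higher. For B2m these differences were 2.37 ± 0.18 and 3.98 ± 0.18. Of the 16 class I genes, 12 were higher in either test.

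**Figure D3:**
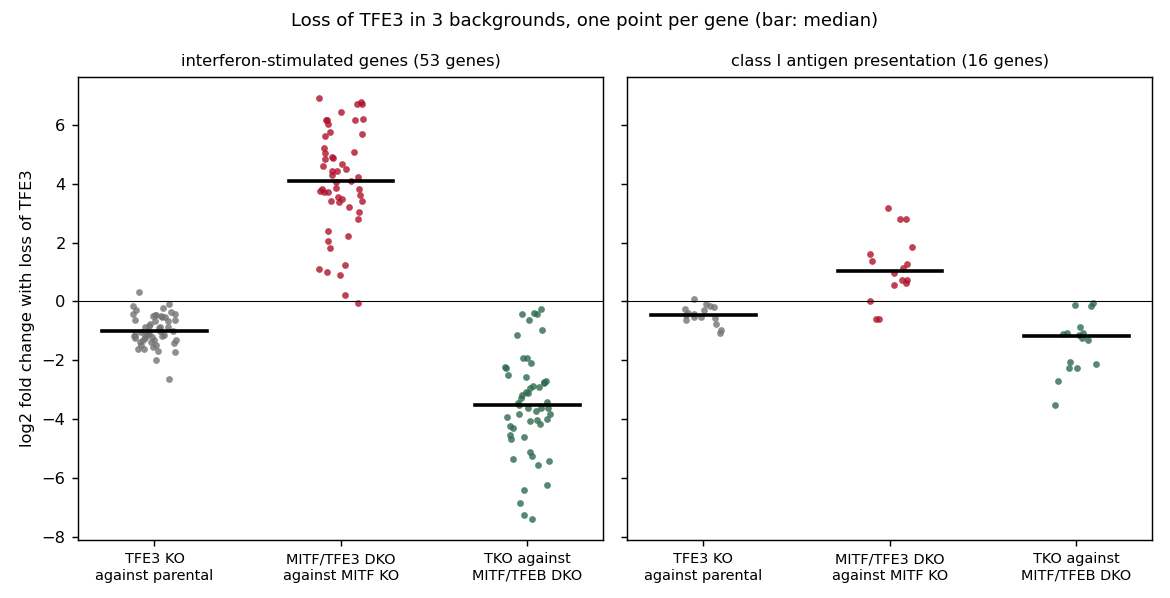
Log2 fold change with loss of TFE3 for each of the 53 ISGs (left) and 16 class I antigen presentation genes (right) in 3 backgrounds, with a bar at the median. The ISG medians are -1.02 in parental cells, 4.08 in MITF KO cells and -3.53 in MITF/TFEB DKO cells.

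The downregulated genes were fewer and less alike. Tagln2, an actin-binding protein of the calponin family, showed the largest fall of the named genes. It had 33.8, 25.1 and 24.7 CPM in the MITF KO libraries and 0.498, 0.989 and 0.366 CPM in the libraries of MITF/TFE3 DKO, a log2 fold change of -4.16 ± 0.23 (adjusted p = 1e-12). Tagln2 had no read in the parental libraries and a mean of 4.88 CPM in TKO, so it was highest in the MITF KO line. Ephb6, Col6a3 and Ntrk3, which encode an ephrin receptor, a type VI collagen chain and the receptor of neurotrophin-3, fell by 2.31, 2.24 and 2.23, to at most 1.08 CPM in any MITF/TFE3 DKO library. Their means in parental cells were also low, at 0.0431, 0.0871 and 0.149 CPM.

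Both measured Y RNA genes fell. Rny3 and Rny1 encode small RNAs that are made by RNA polymerase III and bound by the Ro60 protein. Rny3 had 117, 119 and 102 CPM against 6.48, 9.28 and 7.36 CPM (log2 -3.72 ± 0.24), and Rny1 had 27.5, 29.8 and 22.4 CPM against 2.7, 2.64 and 3.34 CPM (log2 -2.82 ± 0.18). The lines were far apart in both. Vaultrc5, a vault RNA, and Rpph1, the RNA of RNase P, were singled out after their values were seen and fell by 1.28 and 1.30. Other transcripts of RNA polymerase III, looked up afterwards, were not called, with Rnu6 at -0.32, Rn7sk at 0.44 and Bc1 at -0.08. Y RNAs, vault RNAs and Rpph1 have no poly(A) tail in their usual form, and how the 3′ end protocol captured them was not tested.

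Further falls were seen in more abundant genes. Ncam1, the neural cell adhesion molecule, had 151, 155 and 177 CPM against 34.8, 50.3 and 47.1 CPM (log2 -1.86 ± 0.10), and Dpysl3, a cytoskeletal regulator of growth cones, had 181, 174 and 201 CPM against 55.4, 57.8 and 56.4 CPM (log2 -1.69 ± 0.13). Sparcl1, a matrix glycoprotein, fell by 1.53 and Mt2, a metallothionein, by 1.90. These 4 were singled out after their values were seen. Scn1a, Slc4a4, Trib2, Shroom4 and Dipk1b fell by between 2.03 and 2.33 from levels between 3.49 and 11.2 CPM in the MITF KO libraries.

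Several lists held a few called members in a direction other than that of the ISGs. On the extracellular matrix and integrin list, 4 of 38 members were downregulated (10.5%, against 1.67% of all genes) and 1 was upregulated (2.63%, against 3.39%). Loxl2, a collagen cross-linking enzyme, fell by 1.69, Postn by 1.49, Lamb1 by 1.43 and Col1a2 by 1.33, while Mmp15, a membrane matrix protease, rose by 1.37. Col1a2 had 35.6, 30.6 and 39.6 CPM against 12.5, 13.9 and 13.8 CPM. On the sterol and fatty acid list, Scd1, the stearoyl-CoA desaturase, had 20.6, 21.6 and 23.6 CPM against 7.68, 6.69 and 5.99 CPM (log2 -1.56), and Insig1, which retains the sterol sensor in the endoplasmic reticulum, fell by 1.31. These were 2 of 36 (5.56%, against 1.67% of all genes), with a list median of -0.13.

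The unfolded protein response and ATF4 lists shifted by small amounts. On the former, 17 of 29 members (58.6%, against 19.7% of all genes) were lower and 1 was higher at an adjusted p under 0.05 at any size, with a median of -0.45, but only Pdia4, a protein disulfide isomerase, was downregulated, from 381, 454 and 370.4 CPM to 128, 195 and 139 CPM (log2 -1.39). Syvn1 was called upward at 1.18, and was no longer called without MITF/TFE3 DKO replicate 1 (1.02) or MITF KO replicate 2 (0.90). On the ATF4 list none of 37 members was called and 16 were lower at any size (43.2%, against 19.7%), Sesn2 by 0.85.

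On the glycolysis and hypoxia list 4 of 41 members fell (9.76%, against 1.67%) and 2 rose (4.88%, against 3.39%). At any size 19 were lower (46.3%, against 19.7%). Egln3, an oxygen-sensing prolyl hydroxylase, fell by 1.73, Bnip3, a mitophagy receptor, by 1.34, the lactate exporter Slc16a3 by 1.11 and Eno2 by 1.08. Slc16a3 was at -0.99 without MITF KO replicate 2, and Egln3 at -0.76 with 5 CPM added before taking logs. Replication-dependent histones, a family counted after the values were seen, had 11 of 28 members downregulated (39.3%, against 1.67% of all genes). Another 2 were upregulated (7.14%, against 3.39%), and the median was -0.74. The 3′ end protocol reads polyadenylated transcripts, and how it captured histone RNA was not tested. H1f4 had 232, 317 and 264 CPM against 114, 79.6 and 95.3 CPM (log2 -1.49), while H2bc4 rose by 2.09 from between 19 and 20.7 CPM to between 84.9 and 89.3 CPM. On the mitosis list Mki67 alone of 34 was called (2.94%, against 1.67%), at -1.16, and it was at -0.93 without MITF/TFE3 DKO replicate 1. At any size 14.7% of this list was higher and 35.3% lower, against 18.1% and 19.7% of all genes. On the DNA replication list Mcm4 alone of 47 was called (2.13%, against 3.39%), upward at 1.07. It was below the limit without MITF/TFE3 DKO replicate 1 (0.84), MITF/TFE3 DKO replicate 3 (0.97) or MITF KO replicate 2 (0.96).

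**Figure D4:**
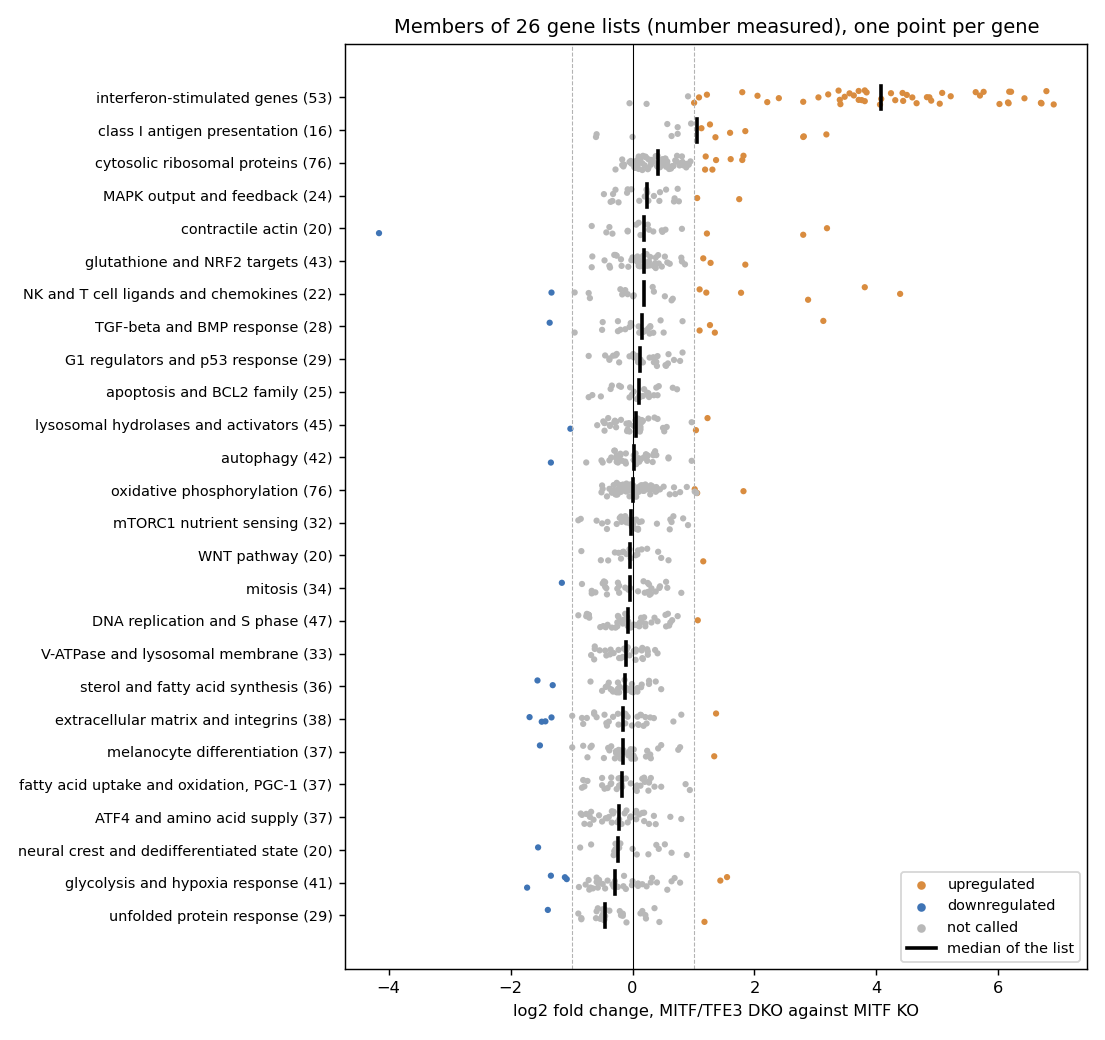
Log2 fold change of MITF/TFE3 DKO against MITF KO for every measured member of 26 gene lists, with the number measured in brackets, a black bar at the list median, and dashed lines at -1 and 1. The ISG median of 4.08 stands apart, followed by class I antigen presentation at 1.05, and the lowest median is that of the unfolded protein response at -0.45.

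Some genes outside the ISGs rose as far as the weaker ISGs. On the contractile actin list 3 of 20 members rose (15%, against 3.39%) beside the fall of Tagln2. Actg2, smooth muscle gamma actin, had 0.188, 0 and 0.436 CPM against 9.88, 10.9 and 8.91 CPM (log2 3.19), and Myl9, a myosin light chain, had 0.847, 0.924 and 0.109 CPM against 10.7, 11.2 and 8.27 CPM (log2 2.80). Acta2, another smooth muscle actin, differed by -0.67. Outside the MITF/TFE3 DKO line the highest mean of Actg2 was 1.19 CPM, in the TKO line.

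On the TGF-beta and BMP list 4 of 28 members rose (14.3%, against 3.39% of all genes) and 1 fell (3.57%, against 1.67%). Id3, an inhibitor of helix-loop-helix factors and a common BMP target, had 7.53, 3.29 and 6.86 CPM against 72, 40.9 and 61.8 CPM (log2 3.13 ± 0.38). Id3 was lowest in replicate 2 of each line, a pattern described below. Bambi, Acvr1 and Tgfb3 rose by 1.35, 1.27 and 1.10, and Pmepa1, a feedback inhibitor of TGF-beta signalling, fell by 1.36 from between 61.1 and 67.6 CPM to between 22.2 and 26.7 CPM. Dusp6, a feedback phosphatase of ERK, rose by 1.75 and Ier2 by 1.06, 2 of 24 on the MAPK list (8.33%, against 3.39%). Ier2 was no longer called without MITF/TFE3 DKO replicate 1, MITF KO replicate 1 or MITF KO replicate 2, with values down to 0.98.

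Further rises were singled out after their values were seen. Ccdc80, a secreted matrix protein, had 1.08, 0.884 and 0.327 CPM against 18.4, 21.7 and 23.5 CPM (log2 3.67). Tinagl1, a matrix glycoprotein, rose by 3.02 from between 7.43 and 8.47 CPM to between 68.4 and 75.2 CPM, and Cyp26b1, which degrades retinoic acid, rose by 2.69 to between 163 and 230.4 CPM. Clu rose by 2.37, Epha3 by 1.82 and the zinc finger gene Zfp985 by 2.42.

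A different set of rises followed replicate 2. The replicate 2 library was the lowest of its line in both lines for 2111 of all genes (17.6%), for 168 of the 407 upregulated genes (41.3%), for 20 of the 201 downregulated genes (9.95%) and for 3 of the 53 ISGs. On the cytosolic ribosomal protein list, 7 of 76 members were called upward (9.21%, against 3.39%), of which Rpl15 had an adjusted p of 0.0962, and 39 were higher at any size (51.3%, against 18.1%), with a median of 0.41. Rpl7a had 199, 88.6 and 215 CPM against 754, 381 and 584 CPM (log2 1.82 ± 0.45, adjusted p = 0.00345). The replicate 2 library was the lowest in each line, and the lines did not overlap. Without MITF KO replicate 2 the count was 4, without MITF/TFE3 DKO replicate 2 it was 10, and without replicate 2 of both lines it was 8.

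The same pattern was seen in Gapdh, at 165, 85.2 and 175 CPM against 509.6, 314 and 393 CPM (log2 1.55), and in Cox7c, a cytochrome c oxidase subunit, at 153, 69.6 and 151 CPM against 679, 241 and 442 CPM (log2 1.82). Gapdh was no longer called without MITF KO replicate 2 (1.22), and Eno1 without MITF/TFE3 DKO replicate 1 (1.14). On the oxidative phosphorylation list 3 of 76 members were called upward, a share of 3.95% that is near the 3.39% of all genes, and between 1 (without MITF KO replicate 2 or MITF/TFE3 DKO replicate 1) and 7 (without MITF/TFE3 DKO replicate 2) when a library was left out. Of 14 snoRNA host genes, counted after the values were seen, 7 rose (50%, against 3.39% of all genes). Among them was Snhg8, at 30.9, 17.8 and 39.4 CPM against 172, 65.2 and 132 CPM (log2 1.99). Ribosomal protein genes and Gapdh have many processed pseudogenes, and the effect of these copies on the counts was not tested.

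**Figure D5:**
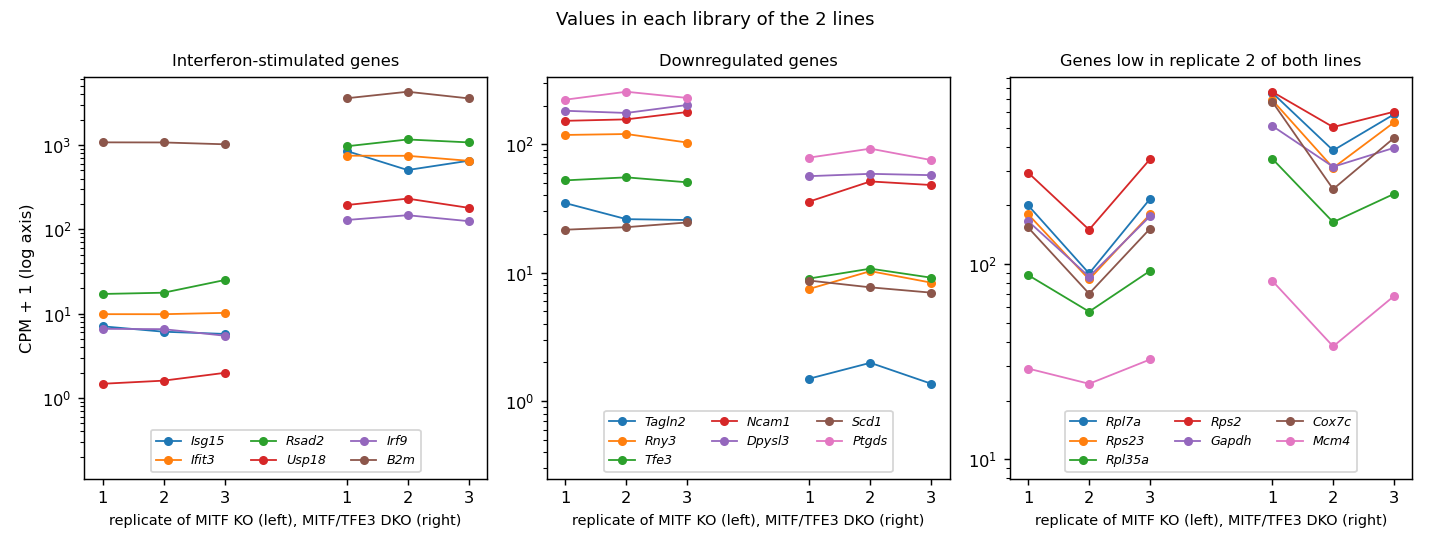
Values in each library (CPM + 1, log axis), with lines joining the 3 replicates of one gene within MITF KO (left) and MITF/TFE3 DKO (right). None of the ISGs and downregulated genes shown dips in replicate 2 of both lines. Ifit3 reaches at most 9.21 CPM in MITF KO, and Isg15 is lowest in replicate 2 of MITF/TFE3 DKO. Rpl7a and the other genes of the right panel dip in replicate 2 of both lines.

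Pigment cell genes were called about as often as all genes. On the melanocyte differentiation list 1 of 37 members rose (2.7%, against 3.39%) and 1 fell (2.7%, against 1.67%), while 13.5% were higher and 32.4% lower at any size, against 18.1% and 19.7%. The member that rose was the melanosomal channel gene Oca2, with 6.59, 5.66 and 7.03 CPM against 16.3, 17.8 and 19.1 CPM (log2 1.34). The member that fell was Ptgds, a prostaglandin D synthase, from 221, 255 and 228 CPM to 77.7, 91.3 and 74.2 CPM (log2 -1.52). Dct, the most abundant marker, differed by -0.38, Tyrp1 by -0.27, Mc1r by -0.27, Mlana by 0.29, Pmel by 0.02 and Tyr by -0.15. Rab38 had 303, 205 and 311 CPM against 712, 286 and 478 CPM, overlapped between the lines (log2 0.78) and was called only without MITF/TFE3 DKO replicate 2 (1.12). Gpnmb, a melanosomal glycoprotein, stood just under the size limit at -0.99, with between 8013 and 8366 CPM against between 3563 and 4857 CPM.

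Ngfr, the low-affinity nerve growth factor receptor, was the only called member of 20 on the neural crest and dedifferentiated list (5%, against 1.67% of all genes). It fell from 3.15, 5.14 and 3.6 CPM to 0.664, 0.612 and 0.731 CPM (log2 -1.55). With 5 CPM added before taking logs Ngfr was at -0.65. Axl differed by 0.64, Met by -0.69 and Nampt, the rate-limiting enzyme of NAD salvage, by 0.94. Ppargc1a, which encodes PGC-1 alpha, was at -0.79 and Hk2 at -0.71, both with an adjusted p under 0.05 and under the size limit. Deptor, an mTOR inhibitor, overlapped between the lines (log2 -0.12), as did Slc45a2 (-0.14), Axin2 (-0.29) and Slc27a1 (-0.50).

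The lysosomal and autophagy lists, which hold classical targets of TFEB and TFE3, had shares of called genes near those of all genes. On the lysosomal hydrolase list 2 of 45 members rose (4.44%, against 3.39% of all genes), Lgmn at 1.23 and Arsg at 1.04, and 1 fell (2.22%, against 1.67%), Naglu at -1.02. None of these calls remained without MITF/TFE3 DKO replicate 1, where the values were 0.90, 0.92 and -0.88, and Arsg and Naglu also missed the limit without MITF KO replicate 2 (0.91 and -0.96) or, for Arsg, MITF/TFE3 DKO replicate 3 (0.99). No member was called among 33 V-ATPase and lysosomal membrane genes (9.09% higher and 30.3% lower at any size, against 18.1% and 19.7% of all genes) or among 32 mTORC1 nutrient sensing genes (18.8% and 15.6%). On the autophagy list Bnip3 was the only 1 of 42 called (2.38% downward, against 1.67%). On the glutathione and NRF2 list 3 of 43 rose (6.98%, against 3.39%), with 2 to 4 called when a library was left out. The 3 were Gstp1 at 1.85 with an adjusted p of only 0.0798, Gpx4 at 1.28 (adjusted p = 0.00759) and Gsta1 at 1.16 (adjusted p = 0.0334). No member was called on the lists of G1 and p53 genes (29), apoptosis genes (25) and fatty acid and PGC-1 genes (37), where 41.4%, 16% and 8.11% were higher and 13.8%, 16% and 24.3% lower at any size, again against 18.1% and 19.7% of all genes. Fzd6, a WNT receptor, was the only 1 of 20 WNT pathway genes to be called (5%, against 3.39%), at 1.16. It was at 0.99 without MITF/TFE3 DKO replicate 1.

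Because the lines are clones, neighbouring genes were examined for shared shifts along the chromosomes. Medians over windows of 100 neighbouring genes ranged from -0.39 to 0.32 on the log2 scale. Windows shifted by at least 0.3 held 489 of 11742 genes, 363 of them on chromosome 5 with a median of -0.31, 99 on chromosome 2 at 0.32 and 27 on chromosome 7 at -0.31. They held 26 of the 608 called genes and none of the ISG list. Ptgds lies in a shifted window of chromosome 2, with a neighbour median of 0.32, opposite in sign to its own change.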

How the data were processed

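RNA from 24 libraries (8 lines, 3 libraries each) was prepared with a QuantSeq forward kit, which reads the 3′ ends of polyadenylated transcripts. The authors trimmed reads with Trim Galore 0.6.5 and cutadapt 2.10, checked them with FastQC 0.11.9, mapped them to mm39 with STAR 2.7.8a and normalised with edgeR. The counting tool and annotation are not given in the sources used here. The deposited signal values are CPM scaled by edgeR TMM factors (0.925 to 1.072), from which whole read counts were recovered for 99.86% of values (99.71% in the lowest library) within 0.01 read, at 18300902 to 26667877 reads a library.

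Values were tested as log2(CPM + 1) with limma 3.58.1 (R 4.3.3) in 1 fit of all 24 libraries with line as the factor and a variance trend. Counting intervals and floors are exact Poisson, at 95%, and cover counting error only. Alternatives were pseudocounts of 0.25 and 5, a mean CPM of at least 5, median-of-ratios size factors (DESeq2 1.42.0), edgeR 4.0.16 quasi-likelihood tests on recovered reads, a replicate block, no variance trend, only the lines compared, centring on neighbouring genes and leaving out each library. Leaving out replicate 2 of both lines was chosen after seeing the data. Replicate pairs of a line differed beyond counting noise (chi-square per degree of freedom at least 5.92). Replicate numbers come from the labels, and the deviations of same-numbered libraries of the 2 lines from their line means correlated by 0.216, 0.376 and 0.159 across genes, so the numbers were taken to pair the samples. The main fit, its p-values and its SEs left this pairing out, and the replicate block took it in. The scripts were tested on simulated data.

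Members and gene lists were chosen with earlier results of these data known, and the 11 further gene families after the values were seen. Genes named are the 3 factors, the 12 largest rises and falls with an adjusted p under 0.05 whose lines do not overlap and whose higher mean is at least 5 CPM, up to 5 called members of each list, genes the study names on these lines and the 4 largest differences between backgrounds in each direction, leaving out predicted genes, beside members of described lists and families. Some genes that this rule selects are not reported here. Positions and promoter windows come from GRCm39 with GENCODE vM39, where 11742 genes matched by symbol.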

Additional observations from a re-analysis of the deposited data

Results flagged for a closer look

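The results below were picked out because the effect of losing TFE3 differed between backgrounds in a test of the difference itself. With limma, the effect in cells without MITF minus the effect in cells with MITF was higher for 492 genes and lower for 252. Ifi44 differed most, by 9.37 on the log2 scale: TFE3 KO lay below parental cells (between 20.2 and 24.5 against between 138 and 153 CPM), while MITF/TFE3 DKO lay above MITF KO, where no library held a read. Iigp1 (8.78), Slfn2 (8.20) and Usp18 (8.07) moved in the same directions, with MITF KO means of 0.0628, 0.292 and 0.685 CPM. Tagln2 (-4.21) and Rny3 (-3.17) fell in cells without MITF and were not called in cells with it. Tagln2 had no read in the parental libraries, so a fall could not be seen there. Pak3 (-3.28), a neuronal kinase, rose in TFE3 KO against parental cells.

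The effect in MITF KO cells minus the effect in MITF/TFEB DKO cells was higher for 586 genes and lower for 405. Iigp1 and Mndal both differed by 14.18, Ifi44 by 13.96 and Usp18 by 13.33. In Usp18 the TKO libraries held between 2 and 2.33 CPM and the MITF/TFEB DKO libraries between 256 and 292 CPM, the reverse order to the MITF KO and MITF/TFE3 DKO libraries. Rny3 (-7.38), Rny1 (-5.71), Tagln2 (-5.51) and Neurl1b (-4.0) differed in the other direction, each rising with loss of TFE3 in cells without MITF and TFEB. Groups of 3 libraries are too small for a test of single outlying libraries.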

How the results depend on the processing

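The 407 upregulated and 201 downregulated genes became 688 and 388 with edgeR on reads, 202 and 60 with a pseudocount of 5, and 329 downregulated with a pseudocount of 0.25 or 133 among genes averaging 5 CPM or more. The difference without against with MITF (492 higher, 252 lower) became 248 and 91 with a pseudocount of 5, 312 and 152 among genes averaging 5 CPM or more, and 386 lower with a pseudocount of 0.25. The difference between MITF KO and MITF/TFEB DKO backgrounds (586 and 405) became 282 and 178 with a pseudocount of 5, and 349 higher among genes averaging 5 CPM or more. Over all lists, 95 members were up and 19 down, and 12 were down with a pseudocount of 5. A larger pseudocount shrinks the fold changes of low genes and a mean CPM minimum leaves fewer genes tested; the cause of the other shifts was not tested. Leaving out each library gave 328 to 550 upregulated and 183 to 232 downregulated genes, 481 to 534 and 231 to 281 for the first difference, 547 to 729 and 378 to 484 for the second, and 83 to 110 and 17 to 23 for the lists. Without replicate 2 of both lines, chosen after seeing the data, 440 rose and 211 fell. The replicate block gave 407 and 201 genes and changed no other count by over 1.5 times. Because the replicate numbers are the same in every line, the block could change p-values but no fold change. Of 1683 values of 100 named genes under these settings, 1627 stayed on their side of the limits, 55 dropped below a limit (24 with a pseudocount of 5), 1 passed it (Rab38) and 0 reversed. Differences of genes under a few CPM are limited by depth, and the clone and the loss of TFE3 cannot be told apart.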

Other observations

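Y RNA levels separated the same lines as ISG levels, at the opposite end. The MITF KO and TKO lines, which held the lowest summed ISG levels, held the highest Rny3 levels of the 8 lines, with means of 113 and 248 CPM, while the means of the other lines lay between 6.6 and 18.6 CPM. Rny1 had means of 26.6 and 78.6 CPM in these lines and between 2.89 and 9.9 CPM in the others, and the vault RNA Vaultrc5 2.05 and 3.26 CPM against at most 0.843 CPM. Rpph1, another RNA polymerase III transcript, did not follow this order, with 7.21 CPM in MITF KO, 4.53 CPM in TKO and up to 18.3 CPM in TFEB KO. The pattern was noticed in these data, and its relation to the ISG levels was not tested.

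Zfp985 and Ntrk3 each had their highest mean in 1 line of the comparison. Zfp985 had a mean of 18.6 CPM in MITF/TFE3 DKO, 2.66 CPM in MITF KO, 5.63 CPM in MITF/TFEB DKO, 6 CPM in TKO and 0.306 CPM or less in each line with MITF. Ntrk3 had 7.89 CPM in MITF KO and at most 0.898 CPM in any other line. Txnip, which binds thioredoxin, rose by 2.42 with a wide spread, at 12.1, 6.99 and 17.5 CPM against 103, 32.5 and 84.9 CPM. It was lowest in replicate 2 of both lines, and its means in the other lines lay between 23.1 and 47.5 CPM.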
